A study of Homo sapiens with 12 samples.

Results

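The endoplasmic reticulum (ER) chaperones and the unfolded protein response (UPR) were followed here through 10 genes in HT29 cells, a human colorectal adenocarcinoma cell line, exposed for 24 h to a water extract of Aconitum carmichaeli Debeaux (ACD). The genes were HSPA5, HSP90B1, CALR, PDIA4, DNAJB9, SDF2L1, XBP1, ERN1, HERPUD1 and EDEM1, chosen by symbol and matched to Ensembl IDs, out of 60675 gene IDs in the count table. All 10 passed the filter on low counts, and 15374 genes were tested in all. The 4 groups of 3 libraries were vehicle (PBS containing 2% DMSO, with no extract) and the extract at 20 µg/mL (low), 100 µg/mL (medium) and 500 µg/mL (high). The extract was dissolved in PBS with 2% DMSO as well. The 2% is that of the solution added to the wells, not of the culture medium. All libraries came from this single tumour line, which limits what they say of other intestinal cells. The titles and the treatment field name ACD, whereas a longer protocol text kept with the libraries describes Poria cocos, so the groups rest on the titles. No label says that same-group libraries came from separate cultures, so the p-values measure only the spread between these libraries.

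The UPR is the response of a cell to misfolded protein in the ER. It has 3 sensors in the ER membrane. IRE1 (encoded by ERN1) splices XBP1 mRNA, ATF6 is cut in the Golgi to release a transcription factor, and PERK (EIF2AK3) phosphorylates eIF2α, after which translation of ATF4 rises. ATF6 and spliced XBP1 act largely on ER chaperones and ER-associated degradation, whereas ATF4 acts on amino acid synthesis, amino acid transport and CHOP (DDIT3), and it is also reached by kinases that do not sense the ER, such as GCN2 for amino acid shortage. The comparison asked whether the chaperone arm, read by the 10 genes, moved together with the targets of ATF4.

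At the high dose, HERPUD1 rose 1.35-fold and XBP1 1.31-fold over vehicle and the other 8 genes did not pass the test, the chaperones HSPA5, HSP90B1, CALR and PDIA4 among them. At the same dose 24 of 29 tested genes of the list of ATF4 targets, which includes ATF4 itself, rose. A gene is said to have passed where edgeR's quasi-likelihood test gave an adjusted p (Benjamini-Hochberg, over all 15374 genes) under 0.05, and a differentially expressed gene (DEG) also changed by over 1.5-fold. The 2 of 10 genes that passed at the high dose were both higher, beside 2.82% of all genes higher and 2.95% lower. None of the 10 was a DEG, beside 2.93% of all genes. No gene of the 10 passed with 100 µg/mL, where 0.572% of all genes were higher and 0.436% lower, or with 20 µg/mL, where the shares were 0.0715% and 0.052%. The median log2 fold change of the 10 genes was 0.11 at 500 µg/mL, −0.04 at 100 µg/mL and −0.05 at 20 µg/mL, beside 0.01, −0.01 and −0.00 over all genes tested. RNA was taken from whole wells, so a change in every cell and a larger change in some of the cells cannot be told apart.

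Total expected counts, the fractional read counts per gene that RSEM estimates, were between 15941255 and 33866644 per library. Levels below are CPM, the counts of a gene relative to the library total, scaled by TMM factors. High-dose replicate 2 stood apart. Over genes, the SD of its log2 differences from the mean of the other libraries of its group was 0.502. In the other 11 libraries this SD was 0.102 to 0.293. Its deviations from the group mean fell with transcript length, with a slope of −0.172 log2 units per doubling of length. Vehicle replicate 1 had −0.0841. The slopes within a group balance by construction, so those of high-dose replicates 1 and 3 (0.0896 and 0.0823) mirror that of replicate 2. Of 6 signs of RNA quality 4 rose at the high dose. Mitochondrial ribosomal RNA held 11.3% to 12.5% of counts there and 1.14% to 1.22% in vehicle, with log2 fold changes of 4.56 for MT-RNR1 and 3.27 for MT-RNR2. The signal recognition particle RNAs RN7SL1 and RN7SL2, near-identical copies whose reads may be split between them, had 3.58 and 4.13, and 2.38 and 3.22 without high-dose replicate 2. Their part in the results below was not tested. With library sizes taken without chromosome M, HERPUD1 (0.43) and XBP1 (0.39) kept their log2 fold changes and were again the 2 genes of the 10 that passed. TMM scaling already offsets a change in such a share, so this setting cannot show whether RNA quality had a part. The 12 colon epithelial markers examined were all above 1 CPM in every group, with KRT8 at 6440 and KRT18 at 3490 CPM in vehicle, and 1 of them, CEACAM5, rose at the high dose by 0.70 on the log2 scale. Without high-dose replicate 2, CEACAM5 (0.79) and CDX2 (0.42) passed as higher and KRT19 (−0.35) and VIL1 (−0.20) as lower. In that fit 9.83% of all genes were higher and 8.89% lower. CDX2, KRT19 and VIL1 were named after their values were seen. In high against low dose 1 of the 12 was higher and 2 were lower, beside 1.44% and 1.54% of all genes. The 14 markers of fibroblasts, endothelium, leukocytes and glia other than LYZ summed to 10.7 to 12 CPM in vehicle and to 14.6 to 16.4 CPM at the high dose, ranges that did not overlap, and COL1A2 was at 0 throughout. CD68 was the single one of the 5 tested markers that rose, by 0.57 on the log2 scale, and LYZ, at 1710 CPM in vehicle, had −0.17 and did not pass, but passed as lower without high-dose replicate 2 (−0.36, edgeR adjusted p = 0.00263). The part of these markers in the results below was not tested.

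The promoters of these genes are shown because they hold the elements through which the arms are known to act. The ER stress element (ERSE), read by ATF6 and XBP1 with NF-Y, was searched as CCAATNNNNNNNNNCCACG, ERSE-II as ATTGGNCCACG, the UPR element as TGACGTGG, and the CARE, the element of ATF4 with C/EBP proteins, as TGATGNAA, each on both strands from 250 bases before to 50 bases after RefSeq starts of GRCh38.p14. ERSE, ERSE-II and the UPR element share the letters CCACG or their complement CGTGG, so their matches can overlap. All 10 genes matched the RefSeq promoter table. ERSE lay in the promoters of HSPA5, HSP90B1, CALR and XBP1, and in 0.0769% of all 35116 promoters (0.0916% of genes). HSP90B1 held 2 copies, 1 on each strand. ERSE-II lay in those of HERPUD1 and SDF2L1, and in 0.0541% of all (0.0696% of genes). The UPR element lay in none of the 10, and in 0.729% of all (0.927% of genes). CARE lay in 1 of the 10, HERPUD1, and in 3.62% of all (4.46% of genes), and 9 of 28 ATF4 targets found in the table held it, ASNS and CHAC1 among them. No ATF4 target held ERSE or ERSE-II.

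Sequences are given 5′ to 3′ on the strand of the gene, with the motif in capitals, where a motif on the other strand reads as its reverse complement. The first 5 genes are those of the 10 with ERSE or ERSE-II and no CARE, then HERPUD1, which holds ERSE-II and CARE in 1 promoter, and the last 2 are ATF4 targets with CARE. All printed bases lie before the RefSeq start. In GENCODE 44, transcripts of HSP90B1, ASNS and CHAC1 begin further upstream, so that their stretches lie in an annotated 5′ untranslated region and are cut to at most 30 bases, and those of HSPA5 and XBP1 reach into one by 12 and 15 bases.
HSPA5 (chr9:125241371-125241429, minus strand, ERSE from 66 bases before the start): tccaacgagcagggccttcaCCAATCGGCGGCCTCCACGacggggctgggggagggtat
HSP90B1, first copy (chr12:103930211-103930239, plus strand, ERSE from 194 bases before the start): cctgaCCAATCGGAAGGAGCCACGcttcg
HSP90B1, second copy (chr12:103930316-103930344, plus strand, ERSE from 89 bases before the start): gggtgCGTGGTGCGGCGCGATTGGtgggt
CALR (chr19:12938364-12938422, plus strand, ERSE from 225 bases before the start): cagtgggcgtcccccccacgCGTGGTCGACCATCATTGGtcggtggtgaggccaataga
SDF2L1 (chr22:21642094-21642144, plus strand, ERSE-II from 188 bases before the start): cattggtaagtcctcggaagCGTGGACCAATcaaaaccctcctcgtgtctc
XBP1 (chr22:28800583-28800641, minus strand, ERSE from 52 bases before the start): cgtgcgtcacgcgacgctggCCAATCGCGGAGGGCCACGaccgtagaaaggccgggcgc
HERPUD1 (chr16:56931946-56932055, plus strand, CARE from 176 and ERSE-II from 117 bases before the start): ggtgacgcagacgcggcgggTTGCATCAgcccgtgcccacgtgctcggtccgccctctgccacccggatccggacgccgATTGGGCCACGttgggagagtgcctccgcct
ASNS (chr7:97872458-97872487, minus strand, CARE from 68 bases before the start): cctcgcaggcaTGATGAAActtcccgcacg
CHAC1 (chr15:40953251-40953280, plus strand, CARE from 209 bases before the start): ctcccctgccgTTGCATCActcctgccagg
A match describes letters in a window and is not a measured site. Of the 2 genes that rose, HERPUD1 held CARE and ERSE-II and XBP1 held ERSE, whereas HSPA5, HSP90B1, CALR and SDF2L1 held ERSE or ERSE-II and did not pass at the high dose.

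HERPUD1 (ENSG00000051108) encodes an ER membrane protein that assembles the complex for ER-associated degradation of misfolded proteins. Its CPM in vehicle replicates 1 to 3 were 36.2, 34.5 and 35.9, and at the high dose they were 47.0, 50.8 and 46.2. All high-dose libraries, including the one that stood apart, lay above every other library, since the low-dose values were 36.9, 33.7 and 36.9 and the medium-dose values 34.2, 34.9 and 35.4. The mean was 35.5 ± 0.907 in vehicle and 48.0 ± 2.49 at the high dose (SD, n = 3 per group), or 0.43 as a log2 fold change, with a 95% interval of 0.29 to 0.58 (edgeR adjusted p = 0.00234). HERPUD1 did not pass at the medium dose (log2 fold change −0.03, edgeR adjusted p = 0.916) or the low dose (0.01, 0.976). The change was thus measured between 100 and 500 µg/mL. Without high-dose replicate 2 the log2 fold change was 0.39 (edgeR adjusted p = 3.18e-04). HERPUD1 passed under 14 of 15 alternative settings and did not pass where edgeR was fitted on vehicle and high-dose libraries alone (adjusted p = 0.0824).

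XBP1 (ENSG00000100219) encodes the transcription factor of the IRE1 arm, and its mRNA is itself raised by ATF6. Its CPM were 183, 178 and 187 in vehicle, 183, 174 and 177 with 20 µg/mL, 180, 178 and 184 with 100 µg/mL, and 215, 284 and 219 with 500 µg/mL. The high-dose libraries again lay above all others, with replicate 2 highest. The mean rose from 183 ± 4.13 to 239 ± 39.0 CPM (SD, n = 3 per group), or 0.39 as a log2 fold change, with a 95% interval of 0.18 to 0.60 (edgeR adjusted p = 0.0329). Without high-dose replicate 2 it was smaller, 0.25, and passed (edgeR adjusted p = 0.0028). XBP1 passed under 9 of 15 alternative settings, with an adjusted p of at most 0.275, and lost the call when any single vehicle library was left out (edgeR adjusted p from 0.0803 to 0.126). Counts per gene add the spliced and unspliced forms, so splicing by IRE1 was not measured.

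ERN1 (ENSG00000178607) encodes IRE1, the kinase and endoribonuclease that senses unfolded protein. Its CPM were 11.6, 14.8 and 14.9 in vehicle and 18.9, 12.1 and 19.0 at the high dose. High-dose replicates 1 and 3 lay above every vehicle library, whereas replicate 2 lay inside the vehicle range, so the groups overlapped. The log2 fold change was 0.29 with a 95% interval of −0.05 to 0.63 (edgeR adjusted p = 0.343). Without high-dose replicate 2 it was 0.45 and passed (edgeR adjusted p = 0.00551). With an offset per library for transcript length it was 0.32 (edgeR adjusted p = 0.0583). The 3 medium-dose libraries had 16.8, 14.3 and 15.2 CPM and the low-dose ones 15, 15.1 and 13.2, which overlapped vehicle.

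HSPA5 (ENSG00000044574) encodes BiP, the main ER Hsp70 chaperone, which also holds the sensors inactive and is the usual readout of the UPR. Its CPM were 368, 370 and 375 in vehicle, 365, 367 and 379 with 20 µg/mL, 409, 385 and 392 with 100 µg/mL, and 415, 495 and 396 with 500 µg/mL. The medium-dose and high-dose libraries all lay above vehicle, by little except in high-dose replicate 2. The mean was 371 ± 3.6 CPM in vehicle and 435 ± 52.3 at the high dose (SD, n = 3 each). The log2 fold change at the high dose was 0.23 with a 95% interval of 0.05 to 0.41, and it did not pass (edgeR adjusted p = 0.14). It was 0.13 without replicate 2 (edgeR adjusted p = 0.101). DESeq2 on all libraries, the only one of 15 alternatives under which HSPA5 passed, gave an adjusted p of 0.0407.

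HSP90B1 (ENSG00000166598), the ER Hsp90 known as GRP94, had 605, 588 and 593 CPM in vehicle and 577, 730 and 567 at the high dose. High-dose replicate 2 was above vehicle and the other 2 high-dose libraries were below it. The log2 fold change was 0.07 with a 95% interval of −0.13 to 0.27 (edgeR adjusted p = 0.745), and −0.06 without replicate 2. CALR (ENSG00000179218), the calcium-binding lectin chaperone calreticulin, had 609, 537 and 508 CPM in vehicle and 512, 548 and 497 at the high dose, and the groups overlapped. Its log2 fold change was −0.09 with a 95% interval of −0.28 to 0.10 (edgeR adjusted p = 0.641). PDIA4 (ENSG00000155660), a protein disulfide isomerase also called ERp72, had 351, 336 and 351 CPM in vehicle and 328, 374 and 322 at the high dose, with replicate 2 above vehicle and the other 2 below. Its log2 fold change was −0.02 with a 95% interval of −0.18 to 0.14 (edgeR adjusted p = 0.924). For these 3 abundant chaperones the limits of the intervals lay between −17.4% and 20.7% relative to vehicle, so larger changes in either direction lay outside them.

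DNAJB9 (ENSG00000128590) encodes ERdj4, a J-domain partner of BiP and a known target of spliced XBP1. It had 12.8, 11.3 and 11.8 CPM in vehicle and 11.9, 17.4 and 11.2 at the high dose, so that only replicate 2 left the vehicle range upwards. Its log2 fold change was 0.16 with a 95% interval of −0.16 to 0.47 (edgeR adjusted p = 0.616), and −0.05 without replicate 2. SDF2L1 (ENSG00000128228) encodes an ER protein that works with J-domain proteins and BiP. It had 18.8, 13.9 and 12.7 CPM in vehicle and 10.5, 21.2 and 11 at the high dose. High-dose replicates 1 and 3 were below every vehicle library and replicate 2 above. Its log2 fold change was −0.11 with a 95% interval of −0.62 to 0.39 (edgeR adjusted p = 0.845). Without replicate 2 it was −0.47 and passed as lower (edgeR adjusted p = 0.0237), and with the length offset it was −0.06.

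EDEM1 (ENSG00000134109) encodes a mannosidase-like lectin that hands misfolded glycoproteins over for degradation and is a known target of XBP1. It had 42.0, 42.8 and 45.2 CPM in vehicle and 41.0, 38.4 and 39.6 at the high dose. Its high-dose libraries were all below vehicle, with a log2 fold change of −0.13 and a 95% interval of −0.28 to 0.03 that did not pass (edgeR adjusted p = 0.356). EDEM1 was the single gene of the 10 whose high-dose libraries did not overlap vehicle from below, beside 11.5% of all genes. HSPA5, XBP1 and HERPUD1 did so from above, 3 of 10 beside 10.5% of all genes. EDEM1 and HERPUD1 both act in ER-associated degradation, and their intervals at the high dose did not overlap. They were not a planned pair, had the lowest and highest log2 fold changes of the 10, and were not tested against each other.

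**Figure D1:**
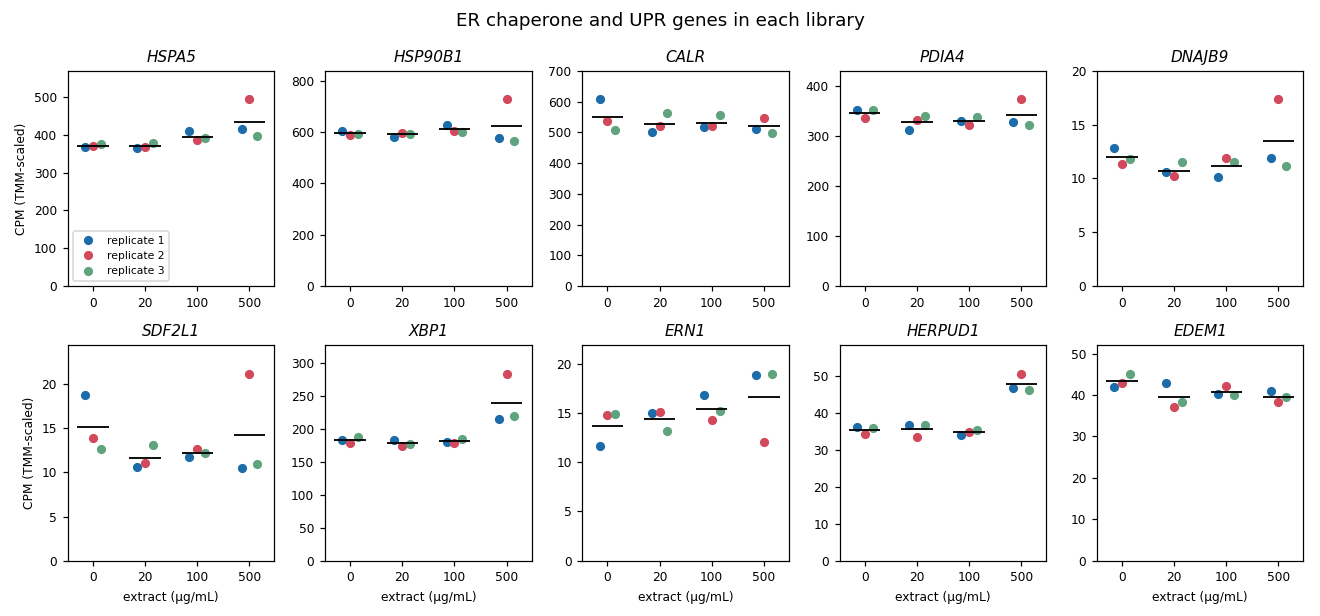
CPM (TMM-scaled) of each of the 10 genes on a linear axis from 0 against extract dose in µg/mL, with 1 point per library coloured by replicate number and a bar at the mean of 3. HERPUD1 and XBP1 overlap vehicle up to 100 µg/mL and are higher in all libraries at 500 µg/mL, whereas HSP90B1, PDIA4, DNAJB9 and SDF2L1 are raised at 500 µg/mL in replicate 2 alone.

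High-dose replicate 2 was higher than the mean of high-dose replicates 1 and 3 for 8 of the 10 genes. The difference on the log2 scale was 0.98 for SDF2L1, 0.59 for DNAJB9, 0.39 for XBP1, 0.35 for HSP90B1, 0.29 for HSPA5, 0.20 for PDIA4, 0.13 for HERPUD1 and 0.12 for CALR. EDEM1 (−0.07) and ERN1 (−0.64) were lower in it. The transcripts of SDF2L1 and ERN1, at the ends of this order, were the shortest and the longest of the 10, with 825 and 7895 bases for the canonical transcript. Whether length accounts for the order was not tested. Without this library 4 of the 10 genes passed at the high dose, HERPUD1, XBP1 and ERN1 as higher and SDF2L1 as lower, beside 9.83% of all genes higher and 8.89% lower in that fit. HERPUD1 kept log2 fold changes between 0.39 and 0.46 whichever of the 6 vehicle and high-dose libraries was left out.

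**Figure D2:**
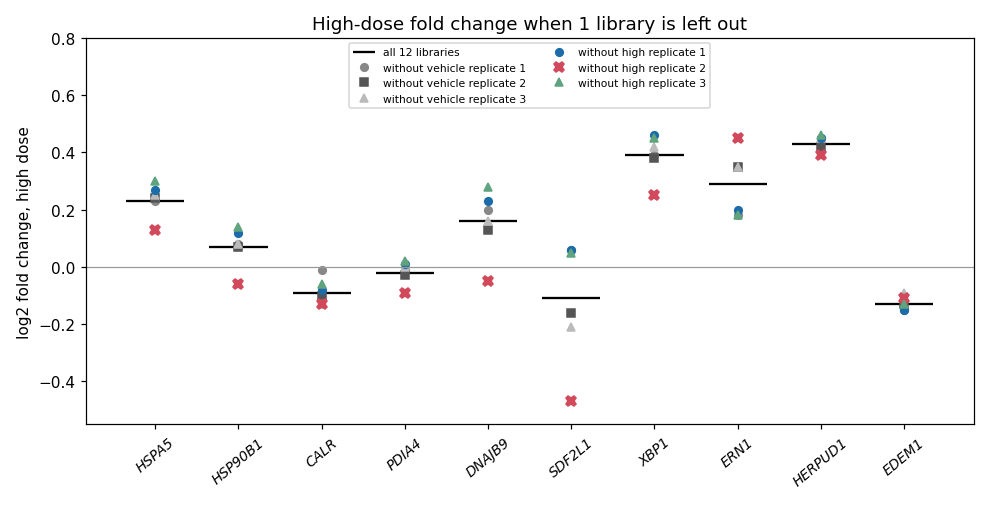
Log2 fold change at the high dose for each gene, with a bar for all 12 libraries and a symbol for each fit that left out 1 vehicle or high-dose library. The fits without high-dose replicate 2 (crosses) lie farthest from the bar for SDF2L1, at −0.47, and differ from it by 0.04 for HERPUD1.

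In levels per kilobase of transcript, CALR was the most abundant of the 10 in vehicle (290 ± 27.6 CPM per kilobase, SD, n = 3), followed by HSP90B1 (214 ± 3.21), PDIA4 (125 ± 3.12), XBP1 (102 ± 2.3) and HSPA5 (94.5 ± 0.917). The second set was lower by far, with SDF2L1 at 18.3 ± 3.89, HERPUD1 at 12.4 ± 0.318, EDEM1 at 7.09 ± 0.271, DNAJB9 at 4.97 ± 0.317 and ERN1 at 1.74 ± 0.24 CPM per kilobase. The vehicle ranges of neighbours in this order did not overlap. Over all 12 libraries the order of PDIA4 and XBP1 and that of SDF2L1 and HERPUD1 was reversed in 3 libraries each, and that of XBP1 and HSPA5 and that of EDEM1 and DNAJB9 in 1 library each. The order rests on 1 canonical transcript length per gene.

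Set directly against the low dose, the high dose gave higher HERPUD1 (log2 difference 0.42, 95% interval 0.27 to 0.57, edgeR adjusted p = 0.00394) and XBP1 (0.43, 0.22 to 0.63, edgeR adjusted p = 0.032). These were 2 of 10 genes, beside 1.44% of all genes higher and 1.54% lower in that comparison. HERPUD1 passed under all 17 alternatives run for it and XBP1 under 8 of 17. In a trend over the dose rank (0 for vehicle to 3 for the high dose), HERPUD1 alone rose, by 0.13 on the log2 scale per step (edgeR adjusted p = 0.0468), beside 2.76% of all genes rising. This call held under 6 of 15 alternatives and was lost without any 1 vehicle or low-dose library and without high-dose replicate 1 or 3. XBP1 rose by 0.12 per step without passing (edgeR adjusted p = 0.0813). Both overlapped vehicle up to the medium dose, so a slope per step does not describe their shape.

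Among ATF4 targets most genes rose at the high dose, and no test set the 2 lists against each other. The list holds 32 genes, ATF4 itself among them, of which 29 were tested. It was chosen with earlier results of these data known. At the high dose 24 rose and none fell, beside 2.82% of all genes higher and 2.95% lower. Of these, 20 were DEGs, and the median log2 fold change of the 29 was 0.86. CHAC1, which degrades glutathione, went from 2.59 ± 0.473 to 20.0 ± 2.27 CPM (SD, n = 3 each), with high-dose libraries at 21.9, 17.5 and 20.7 (log2 fold change 2.97, edgeR adjusted p = 1.03e-07). ASNS, asparagine synthetase, went from 56.0 ± 0.468 to 236 ± 54.8 CPM (2.08, edgeR adjusted p = 1.94e-06). DDIT4, an inhibitor of mTORC1, rose by 1.83, the serine synthesis enzyme PSAT1 by 1.44, the transcription factor ATF3 by 1.45, the cystine transporter SLC7A11 by 1.2, the pseudokinase TRIB3 by 1.07 and the mitochondrial PEP carboxykinase PCK2 by 0.98 on the log2 scale. The glutamine transporter SLC1A5 rose by 0.39, and the cationic amino acid transporter SLC7A1 had 0.41 and did not pass (edgeR adjusted p = 0.289), but rose by 0.66 without high-dose replicate 2 (edgeR adjusted p = 2.28e-05). ATF4 itself rose by 0.59 (edgeR adjusted p = 0.00146) and DDIT3, which encodes CHOP, by 0.75 (edgeR adjusted p = 0.00372); these 2 are named outside the rule for named genes, after their values were seen.

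At the medium dose 2 of the 29 ATF4 targets rose, beside 0.572% of all genes, and at the low dose none passed. SLC7A11 rose at the medium dose by 0.61 and GDF15, a stress-induced secreted factor, by 0.45 on the log2 scale. GDF15 was named after its values were seen. Without high-dose replicate 2, 25 of the 29 rose at the high dose and none fell, beside 9.83% of all genes higher and 8.89% lower in that fit. Of the ATF4 targets 25 of 29 had high-dose libraries all above vehicle, beside 10.5% of all genes. All high-dose libraries lay below vehicle for 1, ATF5, beside 11.5% of all genes, with a log2 fold change of −0.38 that did not pass.

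**Figure D3:**
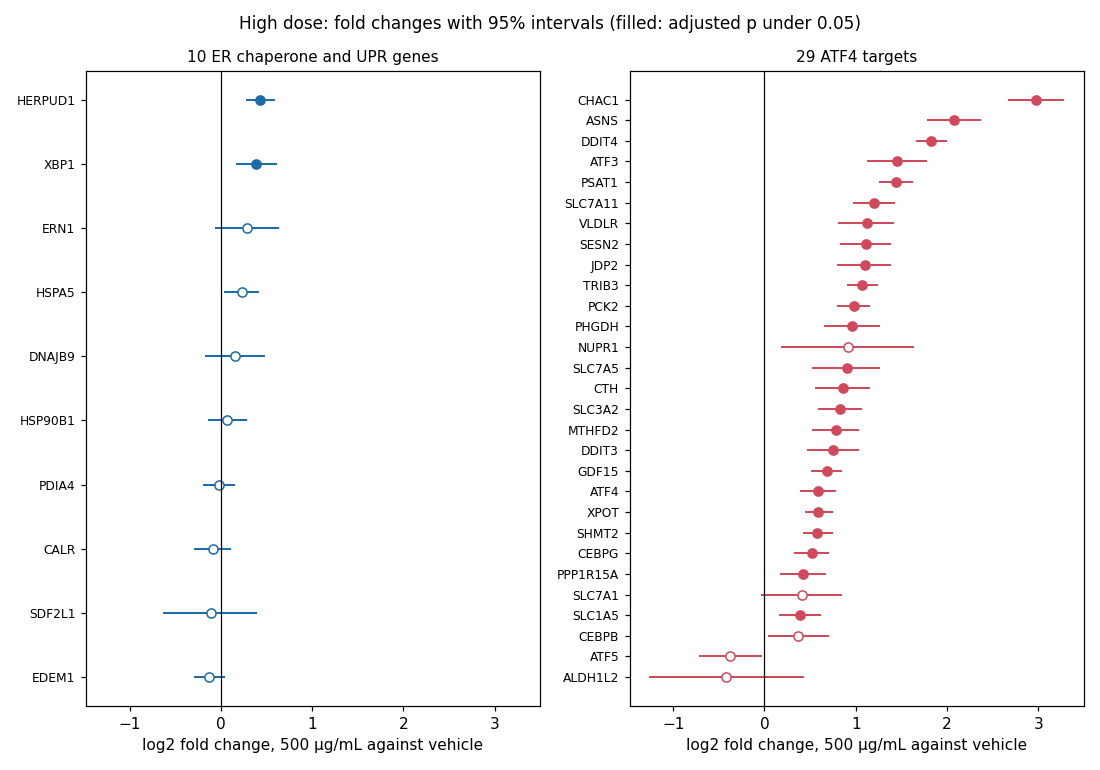
Log2 fold change of the high dose against vehicle (horizontal axis, the same scale in both panels) with its 95% interval for the 10 ER chaperone and UPR genes (left) and the 29 tested ATF4 targets (right), where filled points have an adjusted p under 0.05. HERPUD1 (0.43) and XBP1 (0.39) are the filled points on the left, and CHAC1 reaches 2.97 on the right.

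Averaged within each library, the 10 genes differed from the vehicle mean by 0.04, 0.27 and 0.02 on the log2 scale in high-dose replicates 1, 2 and 3, and by −0.10 to −0.02 at the lower doses, against −0.02 to 0.04 in the vehicle libraries themselves. High-dose replicates 1 and 3 lay within or at the edge of the vehicle range. A mean over genes cancels opposite changes. Without replicate 2, HERPUD1 (0.39), XBP1 (0.25) and ERN1 (0.45) passed as higher and SDF2L1 (−0.47) as lower. The ATF4 targets differed by 0.90, 0.89 and 0.88 in high-dose replicates 1, 2 and 3. The library in which the 10 genes were highest lay between the other two for ATF4 targets.

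**Figure D4:**
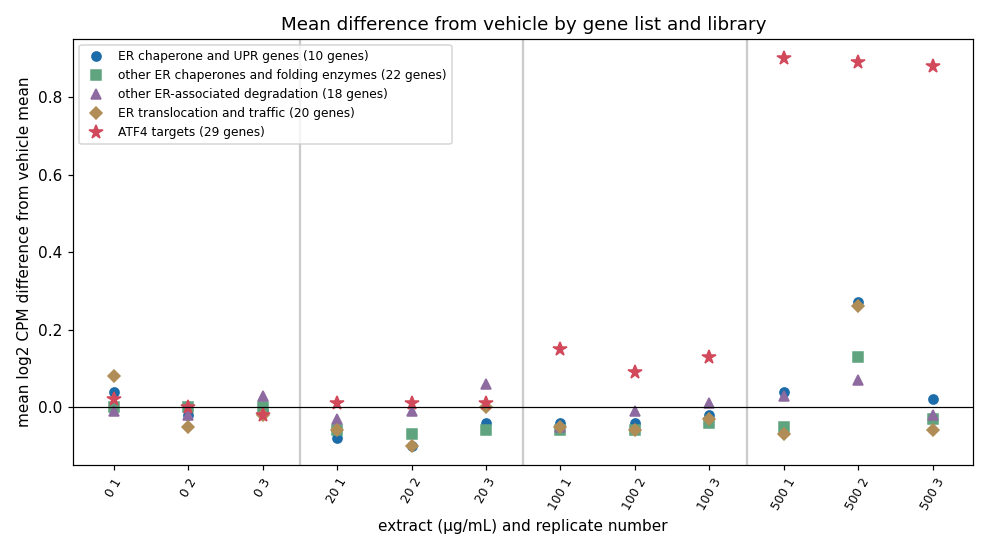
Mean log2 CPM difference from the vehicle mean over the genes of each list (vertical axis) in each of the 12 libraries, ordered by dose in µg/mL and replicate number. ATF4 targets (stars) lie at 0.88 to 0.90 in the 3 high-dose libraries, whereas the ER chaperone and UPR genes (circles) lie at 0.04, 0.27 and 0.02.

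Of the 10 sensors and transcription factors of the UPR, CREB3L1 alone passed at the high dose. The log2 fold change was −0.00 for ATF6 (95% interval −0.15 to 0.15), 0.01 for EIF2AK3, the PERK gene, −0.04 for ATF6B, 0.02 and 0.19 for MBTPS1 and MBTPS2, the proteases that cut ATF6, −0.08 for ERN2, the epithelial paralogue of ERN1, 0.02 for TRAF2, which binds active IRE1, and 0.01 and 0.28 for CREB3 and CREB3L2, membrane-bound factors related to ATF6. None of these 9 passed, although CREB3L2 did so without high-dose replicate 2, with 0.47 (edgeR adjusted p = 0.00202), and ATF6 and PERK are activated as proteins, which RNA does not show. ATF6 had 56.7, 55.8 and 56.8 CPM in vehicle and 58.8, 51.3 and 58.7 at the high dose. CREB3L1, a membrane-bound factor of the same family, fell from 199, 186 and 195 CPM in vehicle to 121, 74.6 and 122 at the high dose. Its log2 fold change was −0.86 (95% interval −1.2 to −0.52, edgeR adjusted p = 0.00622).

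Over 70 other ER genes (these 10 sensors and factors, 22 chaperones and folding enzymes, 18 of ER-associated degradation and 20 of translocation and traffic), 1 rose and 2 fell at the high dose, beside 2.82% and 2.95% of all genes, and none passed at the other doses, and their median log2 fold change was 0.04. DNAJC10, an ER J-domain reductase, rose from 143 ± 8.88 to 182 ± 3.12 CPM (SD, n = 3 each, log2 fold change 0.35, edgeR adjusted p = 0.00622), with low-dose and medium-dose means of 162 and 165 CPM. CRELD2, a known ER stress-inducible protein, fell from 18.2 ± 0.634 to 14.4 ± 1.61 CPM (−0.35, edgeR adjusted p = 0.0475). The promoter of DNAJC10 held the UPR element and that of CRELD2 held ERSE. Of the 61 of these genes found in the promoter table, 8 held the UPR element and 4 held ERSE. Among all genes in that table the shares were 0.927% and 0.0916%. CRELD2 passed under 6 of 15 alternatives, DNAJC10 under 13 and CREB3L1 under 14, and CRELD2 lost the call without any 1 vehicle library (edgeR adjusted p from 0.118 to 0.139) and without high-dose replicate 1 (0.124) or 3 (0.16). The 2 most abundant genes of each of the last 3 lists did not pass, where CANX had a log2 fold change of 0.20, PDIA3 0.03, DERL1 0.18, UBXN4 −0.01, SEC61A1 0.15 and KDELR1 −0.20. Without high-dose replicate 2, CANX (0.19) and SEC61A1 (0.16) passed as higher. In that fit 9 of the 70 rose and 6 fell, beside 9.83% and 8.89% of all genes, shares near the background. Among 11 tested genes of the cytosolic heat shock response, whose factor HSF1 is separate from the UPR, HSPB1 fell by 0.44 on the log2 scale (edgeR adjusted p = 0.0291, passed under 7 of 15 alternatives, and 0.0575 without vehicle replicate 1, where the log2 fold change was −0.29) and the others did not pass, including HSPA8 (0.30) and HSP90AB1 (0.09). Without high-dose replicate 2, HSPA1A (0.25), HSPA1B (0.23), HSPH1 (0.18) and DNAJB1 (0.16), named after their values were seen, passed as higher and HSPB1 (−0.41) as lower, and HSPA8 had 0.15 and did not pass. HSPA1A and HSPA1B are near-identical copies, so their counts are uncertain.

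The genes most like the mean of the 10 over the 12 libraries, by Pearson's r of log2 CPM, were NKAPD1 (0.981), RPF2 (0.979), DCTPP1 (0.978), PAK1IP1 (0.974) and BUD23 (0.972). All 5 were higher in high-dose replicate 2 than in the other high-dose libraries on average, RPF2 for example at 67.1 CPM against a mean of 41.7 in high-dose replicates 1 and 3. Those most like HSPA5 were WDR45B (0.978), IFNGR1 (0.977), UGT1A8 (0.976), GTF2H1 (0.971) and HSPA8 (0.969). Without that library the r of these 10 genes was between 0.875 and 0.931. The 12 points share the 4 doses and that library. The 10 ER chaperone and UPR genes were left out of the ranking. Chaperones such as HSP90B1, CALR and PDIA4 could therefore not appear in it. Of the genes that could, no ER chaperone was among those named here.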

How the data were processed

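The deposited table holds expected counts per gene, which the authors made from MGIseq 100-base paired-end reads of a directional library with FastQC 0.11.9, Trim Galore 0.6.5, STAR 2.7.3a and RSEM 1.3.3 (versions from the submitters' processing notes) on GRCh38. The strand setting of RSEM is not given in the sources used here, so antisense reads of genes overlapping HSP90B1, CALR, ERN1 and EDEM1 cannot be told apart. Counts were rounded, filtered with filterByExpr, scaled by TMM and fitted jointly over 12 libraries with edgeR 4.0.16 (robust quasi-likelihood, R 4.3.3); 95% intervals came from the same fit, and CPM on the log2 scale used a prior count of 2. DESeq2 1.42.0, other normalizations and filters, a replicate block and leaving out each library were alternatives; library sizes without chromosome M, an offset for transcript length and the other doses without high-dose replicate 2 were added after seeing the data. Symbols came from GENCODE 44, which held 93.2% of the gene IDs, lengths from its canonical transcripts, and promoters from RefSeq on GRCh38.p14. On data simulated from the high-dose comparison (15200 genes), the test found 5 of 50 genes changed 1.25-fold, 25 of 50 changed 1.5-fold and 49 of 50 changed 2-fold, with 8 wrong calls. The 10 genes and the other lists were chosen with earlier results of these data known. Named were the 10 genes, all sensors, from each other list the genes that passed at the high dose (at most 8) and the 2 most abundant, and the 5 genes most like the mean and most like HSPA5. No 2 libraries of the same group agreed within sampling noise, and pairs from different groups were not compared.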

Additional observations from a re-analysis of the deposited data

Results flagged for a closer look

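HERPUD1 and XBP1 were picked out because their responses differed between doses by a direct test: the high dose exceeded the low dose by 0.42 for HERPUD1 and 0.43 for XBP1 on the log2 scale. Low-dose HERPUD1 lay between 33.7 and 36.9 CPM and low-dose XBP1 between 174 and 183 CPM, below all high-dose values. Groups of 3 libraries were not searched for outlying values.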

How the results depend on the processing

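Of the 10 genes, 2 passed at the high dose. With the 1.5-fold DEG threshold 0 passed, with edgeR on vehicle and 1 dose 0, with DESeq2 on vehicle and 1 dose 1, and on leaving out single libraries 1 to 4, where 4 came without high-dose replicate 2 and 1 without any 1 of vehicle replicates 1, 2 and 3. The direct comparison of high with low dose gave 2, and 1 to 3 on leaving out libraries. The dose trend gave 1, DESeq2 on all libraries 3, and leaving out libraries 0 to 4. The count at medium and low dose was 0 under every alternative run. For ATF4 targets at the high dose no alternative moved the count of 24 by over 1.5 times. At the medium dose (2) it was 1 with the DEG threshold, 4 with DESeq2 on vehicle and 1 dose, and 0 to 5 without single libraries, and at the low dose (0) it was 1 with DESeq2 on all libraries and up to 1 without high-dose replicate 2. For the 70 other ER genes at the high dose (3) it was 1 with the DEG threshold, 8 with DESeq2 on all libraries, 0 with edgeR on vehicle and 1 dose and 15 without high-dose replicate 2. At the medium dose (0) it was 2 with DESeq2 on all libraries, 4 with DESeq2 and 2 with edgeR on vehicle and 1 dose, and 6 without high-dose replicate 2, and at the low dose 1 without that library. The cause of these shifts was not tested.

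Of 18 same-numbered pairs of libraries, 5 had a correlation of deviations from the group mean over 0.1 (range over all pairs −0.495 to 0.372). The deviations also carry the slopes with transcript length. They cannot show whether the replicate numbers pair the libraries. With the replicate block 1 of the 10 genes passed at the high dose, HERPUD1 (log2 fold change 0.43, edgeR adjusted p = 0.0112), 1 in high against low dose and 0 in the dose trend, and 22 ATF4 targets and 2 other ER genes passed at the high dose.

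Log2 values that lay near 0 turned sign when 1 library was left out, and none of them had passed in the full data. Over these fits HSP90B1 at the high dose lay between −0.06 and 0.14, PDIA4 between −0.09 and 0.02, DNAJB9 between −0.05 and 0.28, SDF2L1 between −0.47 and 0.06, ATF6B between −0.10 and 0.05, EIF2AK3 between −0.01 and 0.04, MBTPS1 between −0.05 and 0.11, CREB3 between −0.13 and 0.09, TRAF2 between −0.04 and 0.08, PDIA3 between −0.07 and 0.10, UBXN4 between −0.03 and 0.01 and HSP90AB1 between −0.02 and 0.16. CALR at the medium dose lay between −0.10 and 0.03 and XBP1 between −0.03 and 0.01, and at the low dose CALR lay between −0.12 and 0.02, ERN1 between −0.04 and 0.12 and HERPUD1 between −0.01 and 0.06. In high against low dose HSP90B1 lay between −0.05 and 0.14, CALR between −0.07 and 0.03, PDIA4 between −0.01 and 0.10, SDF2L1 between −0.10 and 0.44 and EDEM1 between −0.02 and 0.08. With at least 10 counts in every library CREB3 at the high dose was −0.01, and with the length offset XBP1 was 0.04 with 100 µg/mL and 0.01 with 20 µg/mL.

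With 3 libraries a group and a biological coefficient of variation of 11.2%, changes of 1.5-fold and less were found in part only. Genes that did not pass may have changed by 1.5-fold or more. The interval of ERN1 at the high dose, for example, reached 54.4% above vehicle. Splicing of XBP1, cleavage of ATF6 and phosphorylation of PERK were not measured, and 24 h was the single time.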
